A study of Homo sapiens with 16 samples.

Results

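The subject is a set of 10 genes known as markers of ovarian carcinoma, most of whose proteins sit on the cell surface or are secreted (CRABP2 is intracellular): MUC16, MUC1, MSLN, WFDC2, FOLR1, VTCN1, MAL, CD24, CRABP2 and SPON1. They were found by the platform annotation, keeping every probe set that it maps to exactly 1 of these symbols, and they are 10 of the 11963 genes on the U133A arrays. They hold 21 of 22283 U133A probe sets, and all 21 passed the filter on low signals, so that all 10 genes were tested. On the earlier U95 arrays 16 of 12626 probe sets belong to 8 of the genes; none of those 16 was annotated to MUC16 or VTCN1, which are therefore described from U133A alone.

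The cells were OVCAR3, an established human ovarian carcinoma line grown in serum with added insulin. They received 1,25(OH)2D3, the active hormone made from vitamin D, at a stated dose of 0.1 pM for 8, 24 or 72 h, or the ethanol vehicle, which the labels list as time 0; the unit of the dose could not be checked. The hormone was added at staggered times so that all cells were harvested together, and every group had the same exposure to ethanol. Each of the 4 groups had 3 U133A arrays from 3 independent experiments and 1 U95 array, and a single cell line limits what the groups represent.

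Several of these proteins are used in the clinic as serum or tissue markers. MUC16 carries the CA125 epitope, and WFDC2 is the protein measured as HE4. MUC16 and MUC1 are heavily glycosylated membrane mucins that line the apical face of epithelial cells and can be shed. MSLN and FOLR1 are tied to the membrane by a lipid (GPI) anchor. VTCN1, also called B7-H4, restrains T cells. Vitamin D acts through its nuclear receptor, a transcription factor that binds DNA together with the retinoid X receptor.

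Signals below are MAS5 values on a linear scale, and they are not comparable between probe sets of different genes. Differences are on a log2 scale after adding 15.8 to each signal, and p-values are from limma, adjusted over the 7178 genes tested (or, where stated, over 13329 probe sets). A gene counts as changed where the adjusted p was under 0.05. Array medians lay between 168 and 196, and correlations between arrays between 0.958 and 0.976. The cells responded to the hormone: CYP24A1, which encodes the enzyme that breaks it down, was higher by 5.65, 5.86 and 5.89 at 8, 24 and 72 h. GADD45A, a growth arrest gene whose induction was used to check these RNA preparations, was higher by 1.49, 1.91 and 2.02. All 7 epithelial markers were above the filter, and their summed signal was 39931 to 45006 at 8 h, 38073 to 39924 at 24 h and 41811 to 44460 at 72 h, against 39762 to 46244 in vehicle cells. Of the mesothelial markers 4 of 7 were measured and none was above the filter; their sum was 342 to 490 at 8 h, 289 to 446 at 24 h and 370 to 515 at 72 h, against 421 to 578 in vehicle cells. Of the leukocyte markers 5 of 7 were measured and 1, ITGAM, was above the filter; their sum was 433 to 599, 376 to 436 and 444 to 601 at the same times, against 388 to 558. Of the 7 fibroblast markers 3 were above the filter, with COL1A1 the highest at a mean of 541; their sum was 1252 to 1430, 1174 to 1294 and 1271 to 1310, against 1227 to 1377. No endothelial or ciliated tubal marker passed the filter. In none of these marker lists was a gene at 0, which does not show that every transcript was present. The lowest gene means were 2.1 in the fibroblast, 9.0 in the leukocyte and 14.5 in the endothelial list, under the 15.8 added to each signal.

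Of the 10 genes 3 passed the test against vehicle at some time in the main fit, which had no replicate block, and those 3 were lower. With the replicate number as a block in limma, MUC1 (lower, adjusted p = 0.0090) and MUC16 (higher, 0.036) also passed at 24 h. The counts that follow are from the main fit. At 8 h 0 of 10 were higher, where 0.711% of all genes were, and 0 were lower, where 0.0557% were; at an unadjusted p under 0.05, in either direction, there was 1, beside 6.38% of all genes. At 24 h 3 were lower, MAL, VTCN1 and CD24, beside 1.62% of all genes, and 0 were higher, beside 2.45%. At 72 h 2 were lower, MAL and VTCN1, beside 2.98%, and 0 were higher, beside 3.86%. The unadjusted p was under 0.05 for 5 genes at 24 h, beside 14.4% of all genes, and for 3 at 72 h, beside 20.1%. The median log2 difference of the 10 was -0.09, -0.24 and -0.04 at the 3 times, against -0.0040, -0.016 and -0.015 over all genes tested. As the genes were chosen with earlier results in view, these shares are descriptions. In RNA from bulk cells, fewer cells with a transcript and less of it per cell cannot be told apart.

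**Figure D1:**
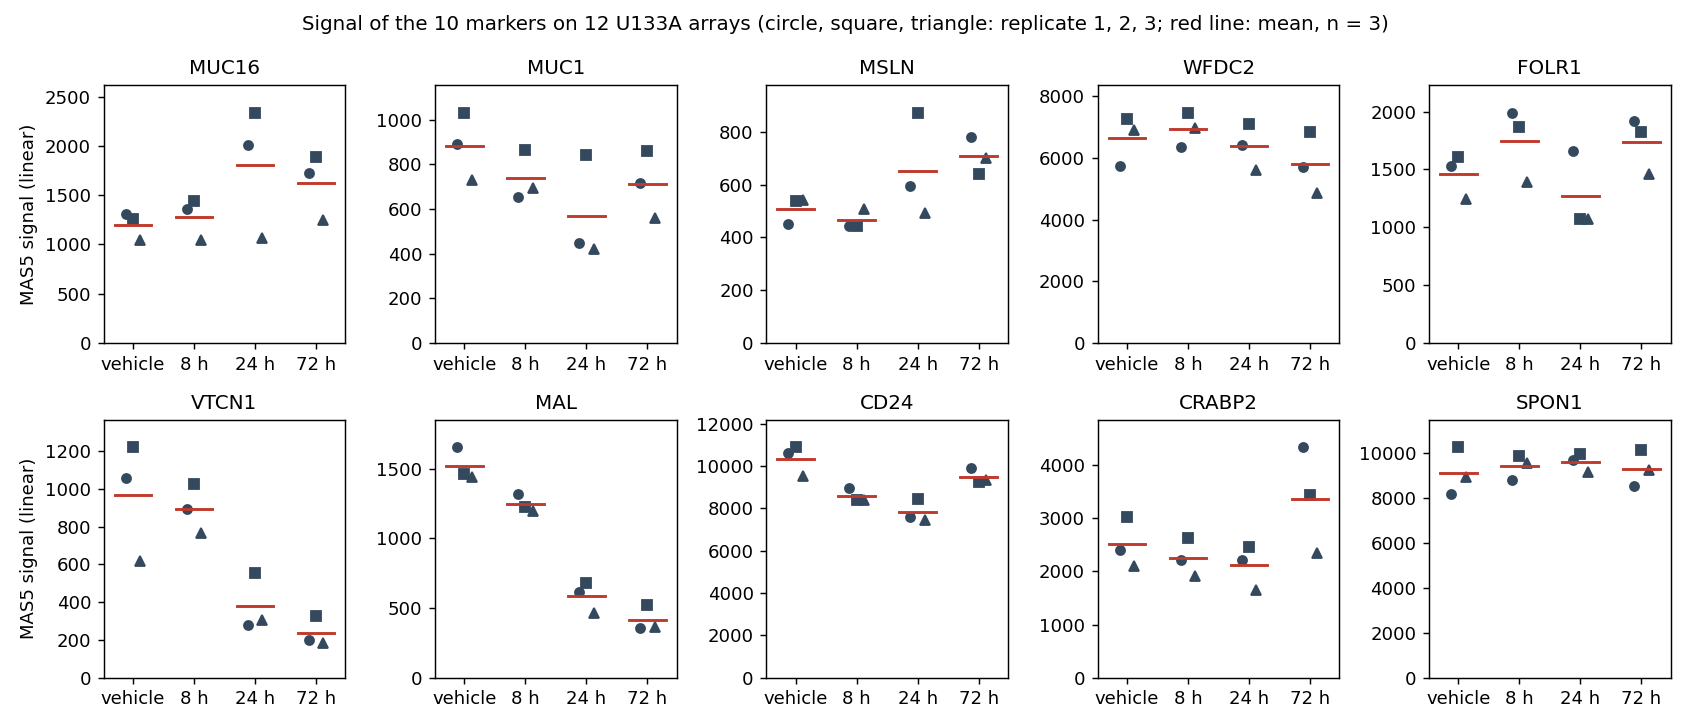
MAS5 signal (linear, y axis from 0) of the highest-mean probe set of each of the 10 genes on the 12 U133A arrays, by group on the x axis; circles, squares and triangles are replicates 1, 2 and 3 and the red line is the mean of 3. MAL and VTCN1 are low at 24 and 72 h with no overlap with vehicle, CD24 is low at 24 h, and the others overlap with vehicle at 24 h. The share of all genes without overlap was not counted, so this only describes the points.

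**Figure D2:**
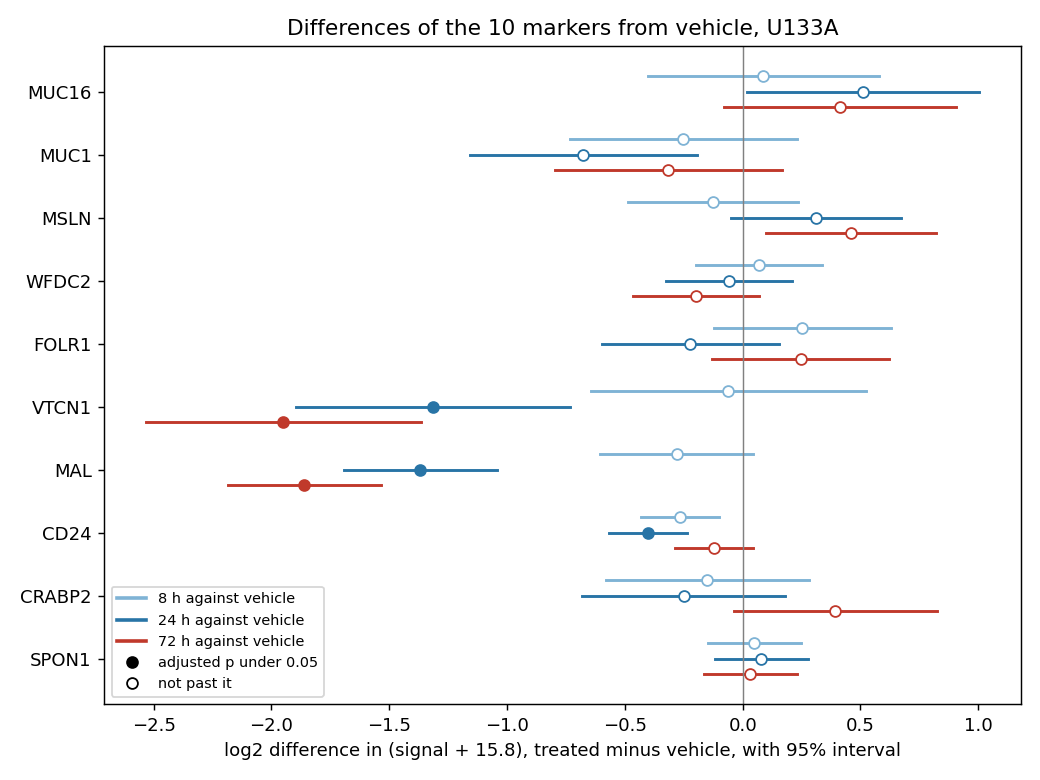
log2 difference from vehicle of each gene at 8, 24 and 72 h, with its 95% interval; filled points passed an adjusted p of 0.05. The 5 filled points are MAL and VTCN1 at 24 and 72 h and CD24 at 24 h, and all lie below 0.

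MAL, a small membrane proteolipid that helps carry lipid rafts to the apical surface, fell at 24 and 72 h. Its probe set 204777_s_at read 1653, 1465 and 1438 in vehicle cells, 1318, 1228 and 1196 at 8 h, 613, 676 and 464 at 24 h, and 356, 518 and 362 at 72 h. The 3 arrays at 8 h already lay below all 3 vehicle arrays, and those at 24 and 72 h lay lower still, with an overlap between 24 and 72 h. The mean was 412 ± 92 at 72 h and 1519 ± 117 in vehicle cells (SD, n = 3 each). The log2 difference was -0.28 (SE 0.15, adjusted p = 0.89) at 8 h, -1.37 (adjusted p = 4.1e-05) at 24 h and -1.86 (adjusted p = 9.2e-07) at 72 h. Leaving out any 1 of the 12 arrays kept the 72 h difference between -2.03 and -1.77. On the U95 arrays 38051_at read 2167 in vehicle cells and 1883, 907 and 830 at 8, 24 and 72 h, with 1 array a group and no test.

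VTCN1, a B7 family member that inhibits T cell activation, fell at the same times. Its probe set 219768_at read 1059, 1219 and 615 in vehicle cells, 893, 1025 and 764 at 8 h, 280, 554 and 307 at 24 h, and 199, 326 and 182 at 72 h. The vehicle arrays were themselves spread, with replicate 3 well under the other two, yet every array at 24 and 72 h lay below it. The mean was 236 ± 79 at 72 h and 964 ± 313 in vehicle cells (SD, n = 3 each). The log2 difference was -0.06 (SE 0.27) at 8 h, -1.31 (adjusted p = 0.0097) at 24 h and -1.95 (adjusted p = 2.7e-04) at 72 h. The 24 h call was lost without vehicle replicate 1 (adjusted p = 0.054), vehicle replicate 2 (0.059) or 24 h replicate 1 (0.056), and over all arrays left out in turn the adjusted p was 0.0025 to 0.059. At 72 h it stayed at 0.0029 or below.

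The sequences before the starts of these 2 genes are shown because they were lower at both 24 and 72 h on every array. Each is the 250 bases before the RefSeq start in GRCh38.p14, read on the gene's strand, and capitals mark a match to a hexamer of the type that the vitamin D receptor and related nuclear receptors bind.
MAL (chr2:95025458-95025707, plus strand): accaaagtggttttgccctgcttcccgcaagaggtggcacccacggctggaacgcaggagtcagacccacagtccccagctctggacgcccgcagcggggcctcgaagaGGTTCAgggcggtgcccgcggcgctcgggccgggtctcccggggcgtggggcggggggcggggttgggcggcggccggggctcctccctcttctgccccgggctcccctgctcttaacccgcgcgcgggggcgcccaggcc
VTCN1 (chr1:117210928-117211177, minus strand): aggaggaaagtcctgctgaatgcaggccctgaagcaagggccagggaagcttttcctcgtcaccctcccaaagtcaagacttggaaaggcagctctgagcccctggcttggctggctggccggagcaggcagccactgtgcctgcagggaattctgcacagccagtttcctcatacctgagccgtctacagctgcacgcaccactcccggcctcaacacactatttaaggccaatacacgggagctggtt
The hexamers searched, on both strands, were AGGTCA, the variant GGGTCA with another leading base, the variant GGTTCA, and finally AGTTCA; as the letters differ, no more than 1 of them can match at a given place on a strand. The MAL window held 1, GGTTCA, which begins 141 bases before the start, and the VTCN1 window held 0. Among 35116 windows of the same length before RefSeq starts, 7.16% held GGTTCA and 33.8% held at least 1 of the 4. A pair of them with 3 bases between, the spacing the receptor pair is best known for, was in 0.0655% of windows and in none of those of the 7 genes of the set that the table held. The windows differed in base composition, with 75.2% G and C and 26 CpG for MAL, and 58.4% and 6 for VTCN1. These matches are descriptions of the letters and were not tested as sites.

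CD24, a short GPI-anchored sialoglycoprotein that binds Siglec-10 on immune cells, was lower at 24 h. Its probe set 216379_x_at read 10628, 10882 and 9528 in vehicle cells, 8941, 8388 and 8411 at 8 h, 7607, 8423 and 7466 at 24 h, and 9906, 9265 and 9323 at 72 h. The arrays at 8 and 24 h all lay below those of vehicle cells, while the 72 h arrays overlapped with them. The mean was 7832 ± 517 at 24 h and 10346 ± 720 in vehicle cells (SD, n = 3 each). The log2 difference was -0.27 (SE 0.08, adjusted p = 0.22) at 8 h, -0.40 (adjusted p = 0.0058) at 24 h and -0.12 (adjusted p = 0.42) at 72 h. The 24 h call was lost when arrays were centred on their medians (adjusted p = 0.066) and when the mean of the probe sets was used (0.063), and it held with each array left out in turn (0.0041 to 0.035).

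CD24 has 6 probe sets, and the suffix _x_at marks those whose probes can also match other transcripts. All 6 were below vehicle on average at all 3 times. At 24 h they ranged from -0.57 to -0.30, and 3 of the 6 passed when p was adjusted over all probe sets: 266_s_at (-0.57, adjusted p = 0.016), 208651_x_at (-0.47, 0.032) and 216379_x_at (-0.40, 0.0093). At 8 h they ranged from -0.57 to -0.27 and at 72 h from -0.29 to -0.12, and 0 passed. The probe sets share their RNA, so they do not replicate each other. Over all 21 probe sets of the 10 genes, 5 were lower at 24 h, 3 of them of CD24, beside 1.04% of all probe sets. At that time 1 was higher, beside 1.67%. At 72 h 2 were lower, beside 2.30%, and 1 was higher, beside 2.87%. At 8 h 0 were lower (0.03% of all) and 0 higher (0.435%). The unadjusted p was then under 0.05 for 6, beside 5.63% of all probe sets. All 6 belong to CD24, so they stand for 1 gene and not for the set.

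**Figure D3:**
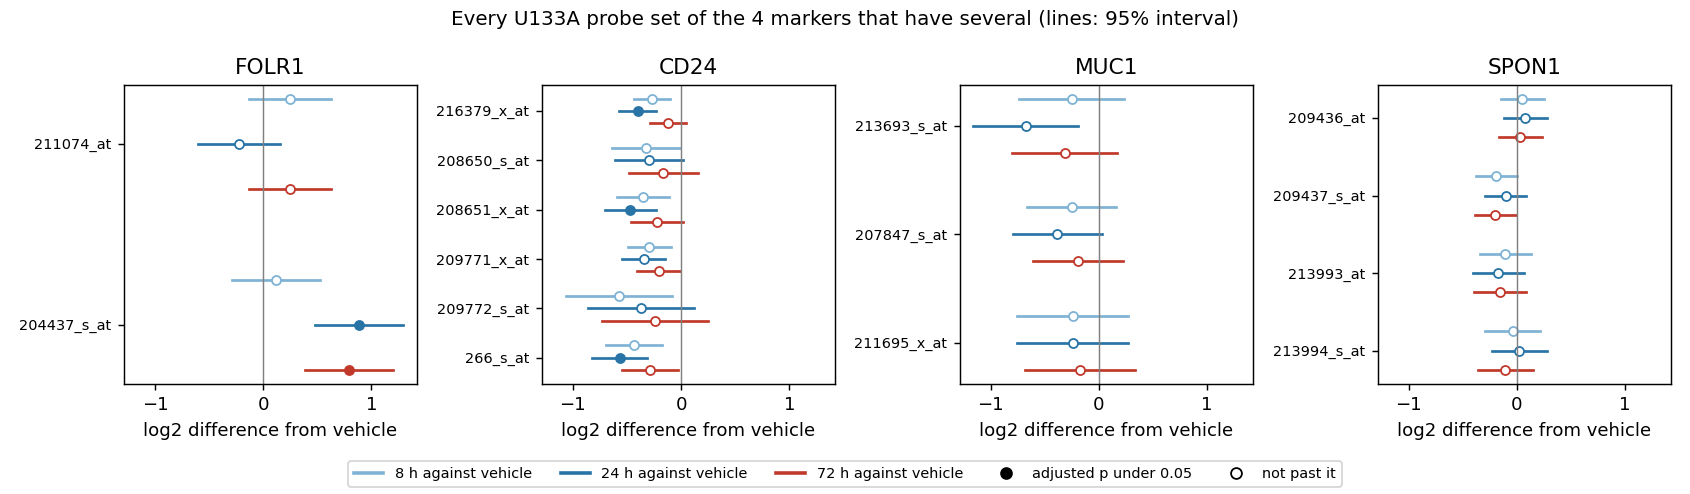
log2 difference from vehicle, with its 95% interval, for every U133A probe set of the 4 genes that have several; filled points passed an adjusted p of 0.05 over all probe sets. All 6 CD24 and all 3 MUC1 probe sets lie below 0 at each time, and the 2 FOLR1 probe sets lie on opposite sides of 0 at 24 h.

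FOLR1, the folate receptor alpha that brings folate into the cell, gave different readings from its 2 probe sets. The brighter, 211074_at, read 1527, 1603 and 1241 in vehicle cells, 1991, 1869 and 1387 at 8 h, 1660, 1067 and 1075 at 24 h, and 1915, 1825 and 1457 at 72 h. Its groups overlapped at every time, with log2 differences of 0.25, -0.22 (95% interval -0.60 to 0.15) and 0.25, none of which passed. The other, 204437_s_at, read 837, 734 and 829 in vehicle cells, 938, 959 and 722 at 8 h, 1967, 1575 and 1072 at 24 h, and 1600, 1523 and 1109 at 72 h. Here every array at 24 and 72 h lay above every vehicle array. In the fit of all probe sets it was higher by 0.89 (SE 0.19, adjusted p = 0.017) at 24 h and by 0.79 (SE 0.19, adjusted p = 0.024) at 72 h, with 0.12 at 8 h.

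Both calls of 204437_s_at depended on single arrays. At 24 h the adjusted p was 0.076 without vehicle replicate 2, 0.053 without vehicle replicate 3, 0.094 without 24 h replicate 1 and 0.058 without 24 h replicate 2, within a range of 0.0020 to 0.094. At 72 h it was 0.061, 0.091 and 0.063 without vehicle replicates 1, 2 and 3, and 0.106 and 0.075 without 72 h replicates 1 and 2, within a range of 0.0060 to 0.106; it was 0.053 with no filter on low signals. The direction did not turn in any of these. The U95 arrays had 3 FOLR1 probe sets, all above vehicle at each time: 821_s_at read 199 in vehicle cells and 226, 421 and 398 at 8, 24 and 72 h, 39311_at differed by 0.86 and 0.63 at 24 and 72 h, and 534_s_at by 0.43 and 0.50. The difference between the U133A probe sets was not tested.

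Of the mucins and their partner, none passed the test at any time. MUC16, a membrane mucin whose shed part is measured as CA125, read 1305, 1254 and 1042 in vehicle cells, 1358, 1441 and 1049 at 8 h, 2009, 2339 and 1062 at 24 h, and 1723, 1884 and 1251 at 72 h. At 24 h replicates 1 and 2 lay above all vehicle arrays and replicate 3 was among them. The log2 difference was 0.51 (95% interval 0.02 to 1.00, adjusted p = 0.32) at 24 h and 0.41 (-0.08 to 0.90, adjusted p = 0.35) at 72 h. Without 24 h replicate 3 the 24 h difference was 0.85 (adjusted p = 0.012) and without 24 h replicate 2 it was 0.29 (0.66), the ends of the range over the arrays left out. With the replicate number as a block its adjusted p was 0.036.

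MUC1, a membrane mucin of most glandular epithelia with a signalling tail, was below vehicle on average without passing. Its probe set 213693_s_at read 889, 1032 and 730 in vehicle cells, 654, 864 and 694 at 8 h, 446, 844 and 420 at 24 h, and 716, 858 and 558 at 72 h. Replicates 1 and 3 at 24 h lay below all vehicle arrays and replicate 2 among them. The difference was -0.68 (95% interval -1.16 to -0.20, adjusted p = 0.13) at 24 h, and -0.25 and -0.32 at 8 and 72 h. Without 24 h replicate 2 it was -0.99 (adjusted p = 0.0057, in a range of 0.0057 to 0.40 over the arrays left out), and with array weights -0.83 (adjusted p = 0.018). With the replicate number as a block its adjusted p was 0.0090. The labels do not say that a replicate number marks an experiment, and the arrays' deviations bear out that pairing for 24 h with vehicle less than for 24 h with 8 h. The other 2 probe sets were at -0.38 and -0.24 at 24 h. The 6 MUC1 probe sets on U95 were all below vehicle at 24 h, by -0.57 to -0.09, and at 72 h they ranged from -0.46 to 0.05.

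MSLN, the GPI-anchored protein that binds MUC16, read 449, 537 and 541 in vehicle cells, 443, 443 and 507 at 8 h, 593, 873 and 491 at 24 h, and 780, 640 and 700 at 72 h. All arrays at 72 h lay above all vehicle and all 8 h arrays. The difference at 72 h was nevertheless short of the threshold, at 0.46 (95% interval 0.10 to 0.82, adjusted p = 0.13); it was -0.13 at 8 h and 0.31 at 24 h. Among the alternatives run it passed only when 24 h replicate 2 was left out (adjusted p = 0.040, in a range of 0.040 to 0.36), which leaves the 2 groups compared as they were and changes the shared estimate of the spread. The U95 ratios were -0.24, 0.26 and 0.20 at the 3 times.

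The secreted and intracellular members were not past the threshold at any time. WFDC2, a secreted protein with WAP domains, read 5746, 7256 and 6907 in vehicle cells, 6370, 7472 and 6974 at 8 h, 6426, 7094 and 5605 at 24 h, and 5700, 6849 and 4873 at 72 h. These groups overlapped throughout, with differences of 0.07, -0.06 and -0.20 and a 95% interval of -0.47 to 0.07 at 72 h. SPON1, an extracellular matrix protein first known for guiding axons, read 8167, 10257 and 8922 in vehicle cells, 8786, 9886 and 9540 at 8 h, 9685, 9947 and 9153 at 24 h, and 8555, 10125 and 9246 at 72 h. Its differences were 0.05, 0.08 and 0.03, with a 95% interval of -0.16 to 0.23 at 72 h, although its sign depended on the probe set, on quantile normalization and on single arrays. Its other 3 probe sets ranged from -0.20 to 0.02 over the 3 times and none passed. The U95 probe set of SPON1, 35277_at, differed by -0.15, 0.07 and -0.07 at 8, 24 and 72 h.

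CRABP2, which carries retinoic acid to its nuclear receptor, was scattered at 72 h. It read 2401, 3028 and 2106 in vehicle cells, 2221, 2636 and 1911 at 8 h, 2223, 2457 and 1657 at 24 h, and 4334, 3437 and 2336 at 72 h. Replicates 1 and 2 at 72 h lay above all vehicle arrays, and replicate 3 lay within them. The difference was -0.15 at 8 h, -0.25 at 24 h and 0.39 (95% interval -0.04 to 0.82, adjusted p = 0.30) at 72 h. Leaving out single arrays gave -0.37 to -0.087 at 24 h, and at 72 h 0.19 without 72 h replicate 1 and 0.63 without 72 h replicate 3. On U95 its 2 probe sets stood 0.27 and 0.30 above vehicle at 72 h. They were also above it at 24 h, by 0.09 and 0.12, and at 0.05 and -0.17 at 8 h.

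**Figure D4:**
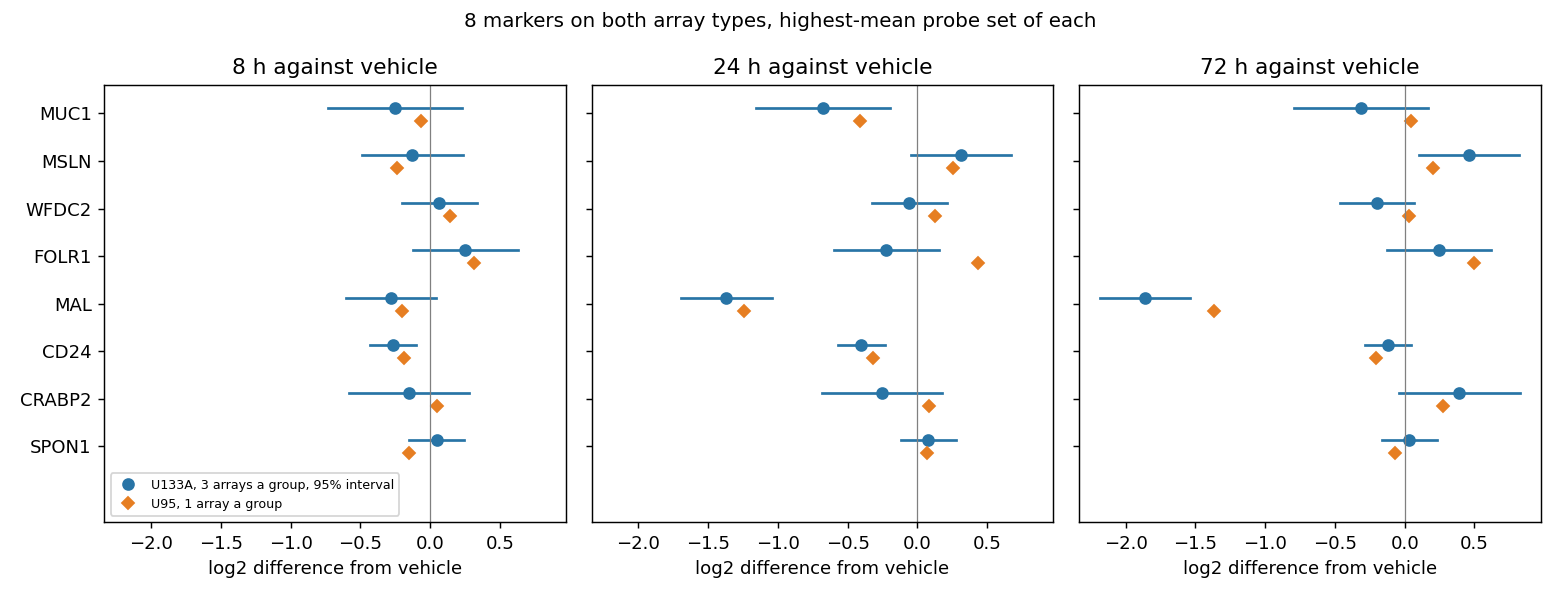
log2 difference from vehicle at 8, 24 and 72 h for the 8 genes on both array types, each by its highest-mean probe set on that type: circles with 95% intervals are U133A (3 arrays a group) and diamonds are U95 (1 array a group, no error). MAL is the leftmost on both types at 24 and 72 h. FOLR1 and CRABP2 at 24 h lie below 0 on U133A and above 0 on U95. The types also lie on opposite sides of 0 for WFDC2 at 24 and 72 h, MUC1 at 72 h, CRABP2 at 8 h and SPON1 at 8 and 72 h.

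The times were also set against each other. At 24 h against 8 h 1 of 10 genes was lower, MAL (-1.09, adjusted p = 0.0027), beside 0.279% of all genes, and 0 were higher, beside 0.362%. VTCN1 differed by -1.25 with no overlap between the groups (adjusted p = 0.053); with the replicate number as a block, since same-numbered arrays of these times deviated together, its adjusted p was 0.0015. It also passed without vehicle replicate 3 (0.032), 24 h replicate 2 (0.015) or 72 h replicate 2 (0.040), in a range of 0.015 to 0.23 over the arrays left out. At 72 h against 24 h 0 of 10 were higher (0.0836% of all genes) and 0 lower (0.0697%), with 5 at an unadjusted p under 0.05, beside 11.7% of all genes. Those 5 were MAL (-0.49), VTCN1 (-0.64), CD24 (0.28), FOLR1 (0.47) and CRABP2 (0.64). CRABP2 had an adjusted p of 0.27 without the block and 0.040 with it. CD24 was above its 24 h level on every 72 h array (adjusted p = 0.21). At 72 h against 8 h 2 were lower, MAL (-1.58, adjusted p = 1.9e-05) and VTCN1 (-1.89, adjusted p = 0.0010), beside 1.14%, and 0 were higher, beside 1.38%. MSLN was at 0.59 in that comparison (adjusted p = 0.091) and passed without 24 h replicate 2 (0.021) or 3 (0.048). CRABP2 was at 0.54 (adjusted p = 0.21) and, without 72 h replicate 3, at 0.78 (0.044); with the block its adjusted p was 0.023. The comparisons share arrays, so they are not independent of each other.

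Over the 12 arrays, the genes with the pattern most like each changed marker were ranked by Pearson's r on log2 signal. For MAL they were MCTP1 (0.98), EYA2 (0.96) and S100A8 (0.96), which stood at -1.17, -0.59 and -2.29 against vehicle at 72 h. For VTCN1 they were MAL (0.95), LPAR3 (0.94) and TSHR (0.93), the last 2 at -0.61 and -1.38 at 72 h. The genes nearest to CD24 were less close: PSRC1 (0.87), SCAF11 (0.87) and NDUFS7 (0.85), at -0.40, -0.28 and -0.51 at 24 h. These arrays share their groups, and r over 12 of them mostly follows the group means.

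**Figure D5:**
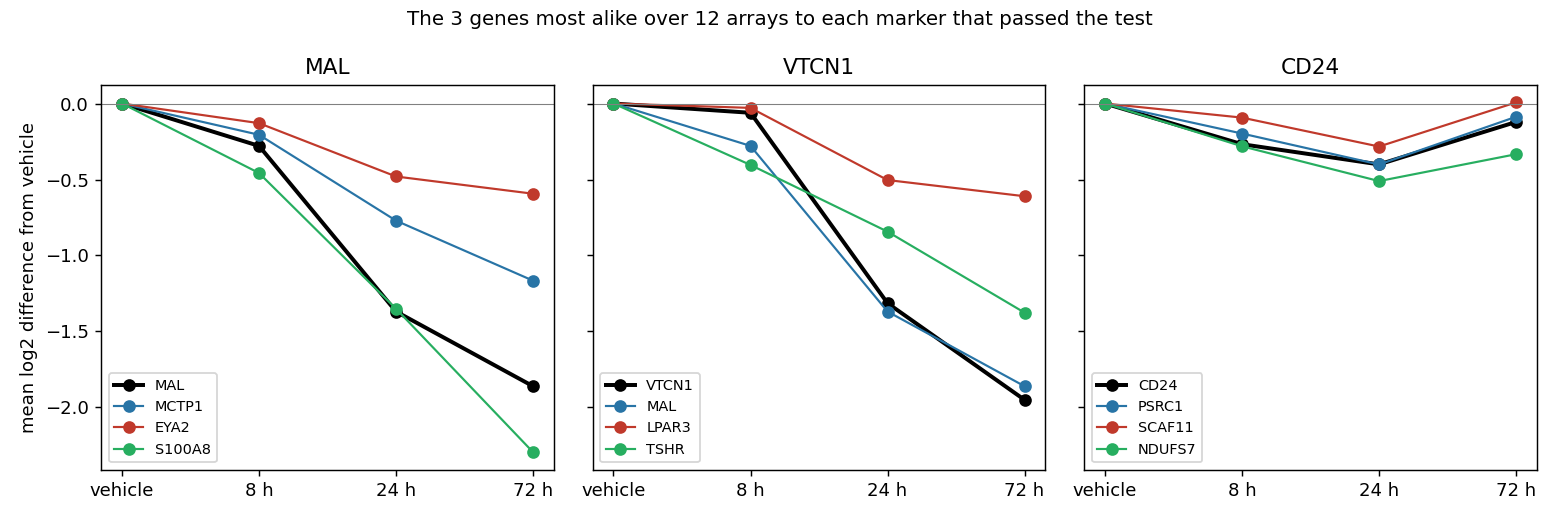
Mean log2 difference from vehicle (y axis) at vehicle, 8, 24 and 72 h for MAL, VTCN1 and CD24 (black) and the 3 genes most alike to each over 12 arrays (coloured). The MAL and VTCN1 sets are lower at each later time, and the CD24 set is lowest at 24 h.

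Genes related to the 10 by family or function were counted from lists. In 5 lists no tested gene passed at any of the 3 times: other mucins (2 of 11 tested), folate uptake and use (7 of 13), B7 and checkpoint ligands (5 of 12), the MAL family and raft proteins (7 of 11) and retinoid handling (7 of 17). At an unadjusted p under 0.05 there were 0 other mucins and 0 B7 ligands at each time, 2 folate genes at 24 h, and 2, 2 and 4 MAL family and raft genes at 8, 24 and 72 h. There were 1, 2 and 2 retinoid genes. Over all genes these shares were 6.38, 14.4 and 20.1% at the 3 times. In 2 further lists, where a gene passed, there were 0, 1 and 2 glycosylation enzymes and 1, 4 and 2 WAP and Kunitz inhibitors. Of 9 glycosylation enzymes tested, which build the sugar chains of mucins, 1 fell at 72 h: GALNT3, an enzyme that starts O-linked chains, averaged 2334 ± 366 at 72 h and 3748 ± 274 in vehicle cells (SD, n = 3 each; -0.69, adjusted p = 0.0024). With the mean of its probe sets it was at -0.18 (adjusted p = 0.63). Of 5 WAP and Kunitz inhibitors tested, relatives of WFDC2, 1 rose at 24 and 72 h: SLPI, a secreted inhibitor of neutrophil elastase (0.40 and 0.35, adjusted p = 0.015 and 0.025). Its 72 h call was lost without vehicle replicate 1 (adjusted p = 0.110) or 3 (0.073), or 72 h replicate 2 (0.102) or 3 (0.070), in a range of 0.0061 to 0.110, and with quantile normalization (0.072), no filter on low signals (0.054) or only the groups compared (0.072).

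Of 9 GPI-anchored proteins tested, 1 rose at 24 and 72 h: PLAUR, the urokinase receptor (0.65 and 0.75, adjusted p = 0.0019 and 3.8e-04). It averaged 783 ± 47 at 72 h and 458 ± 23 in vehicle cells (SD, n = 3 each). At an unadjusted p under 0.05 there were 1, 2 and 5 of the 9 at 8, 24 and 72 h. Of 5 spondins and thrombospondin repeat proteins tested, ADAMTS1, a secreted protease, was lower at all 3 times (-0.85, -0.80 and -0.88, adjusted p = 0.039, 0.018 and 0.0063). The unadjusted p was under 0.05 for 4, 5 and 4 of these 5 at 8, 24 and 72 h, beside 6.38, 14.4 and 20.1% of all genes. Their median log2 difference was -0.44, -0.63 and -0.49, against -0.0040, -0.016 and -0.015 over all genes tested. F3, tissue factor, which starts blood clotting and was placed on that list, stood 1.48 above vehicle at 72 h (adjusted p = 0.036). It averaged 311 ± 67 at 72 h and 122 ± 83 in vehicle cells (SD, n = 3 each), the vehicle mean lying under the filter signal of about 169. Without vehicle replicate 1 it stood at 0.82 (adjusted p = 0.076), and the call was also lost without 72 h replicate 1 (0.123) or 3 (0.093), in a range of 0.0091 to 0.123, and with no filter (0.083), array weights (0.077) or only the groups compared (0.086).

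A further list of 37 genes used to mark epithelial ovarian carcinoma, of which 31 were tested, gave these counts: 3 rose and 0 fell at 8 h, 7 rose and 3 fell at 24 h, and 8 rose and 4 fell at 72 h. Beside them, 0.711% of all genes were higher and 0.0557% lower at 8 h, 2.45 and 1.62% at 24 h, and 3.86 and 2.98% at 72 h, and the counts of the shorter lists above stand beside the same shares. The unadjusted p was under 0.05 for 8, 15 and 21 of the 31 at the 3 times, beside 6.38, 14.4 and 20.1% of all genes. This list and the shorter ones were chosen with earlier results of these data known, so these shares are descriptions. KLK6, a secreted kallikrein protease, averaged 6136 ± 1082 at 72 h and 829 ± 68 in vehicle cells (SD, n = 3 each), a log2 difference of 2.85. KLK5, another kallikrein, was higher by 1.05 and WT1, a transcription factor of serous tumours, by 1.05 at 72 h. The genes that rose at 8 h were KLK6, WT1 and ELF3, and those that fell at 72 h were LCN2 (-1.56), S100A1 (-0.97), EMX2 (-0.47) and KRT18 (-0.37); ELF3, LCN2, S100A1 and EMX2 are named after their values were seen. The 7 epithelial markers are also on that list. Among them 0 passed at 8 h, 1 rose and 2 fell at 24 h, and 2 rose and 1 fell at 72 h. CDH1, the adhesion protein E-cadherin, rose by 0.66 at 24 h and 0.69 at 72 h. The keratin KRT18 fell by 0.50 and 0.37 at 24 and 72 h, and the keratin KRT7 rose by 0.48 at 72 h. PAX8, likewise named after its values were seen, fell at 24 h (-0.37, adjusted p = 0.0057). It was at -0.17 and -0.19 at 8 and 72 h without passing, and its arrays lay below all vehicle arrays at each time. With the mean of its probe sets KRT7 stood at 0.58 at 72 h (adjusted p = 0.139). KRT18's 72 h call was lost without vehicle replicate 2 (adjusted p = 0.091) or 3 (0.108) or 72 h replicate 2 (0.076) or 3 (0.051), in a range of 0.0080 to 0.108, and with median centring (0.070) or no filter (0.059). These differences in epithelial genes stand beside those of the 10, and their part in them was not tested.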

How the data were processed

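RNA from OVCAR3 cells was hybridised to Affymetrix arrays: 12 U133A (4 groups of 3) and 4 U95 (1 each). The deposited values are MAS5 signal intensity on a linear scale, per the submitters' processing notes. The version and scaling are not given in the sources used here. The mean signal with 2% trimmed at each end was 500.16 to 500.19 on the U133A arrays, so their values were on a common scale. The precision is limited by the number of arrays. Of 22283 U133A probe sets 19071 had 1 gene symbol in the platform annotation, 1043 several and 2169 were not listed (U95: 10961, 546 and 1119); symbols were updated by gene ID to RefSeq, from which the promoter sequences also come (GRCh38.p14).

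From these, log2(signal + 15.8) was taken, the constant being the 10th percentile of all U133A values (13.9 for U95). Each gene was represented by its highest-mean probe set, and genes whose mean log2 value lay under the 40th percentile (a signal of about 169 on that scale) were left out, leaving 7178 of 11963; 13329 probe sets passed a filter at the same percentile. The 4 groups were fitted together with limma 3.58.1 (R 4.3.3; lmFit, eBayes with trend), with Benjamini-Hochberg adjustment over all genes or all probe sets and a threshold of 0.05. The limma step was run on simulated arrays with independent noise, for 72 h against vehicle only. How often it finds small differences is not reported here. The members and lists were chosen with earlier results of these data known. Genes named from other lists were the up to 3 with the lowest p among those past the threshold at 72 h, except where stated. The alternatives were other pseudocounts, no filter, quantile normalization, median centring, the mean of probe sets, array weights, only the groups compared, a replicate block, and each array left out in turn. The settings for FOLR1 204437_s_at and the list genes were added after seeing the data.

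Same-numbered arrays deviated together with all 3 correlations above 0.1 only for 24 h with 8 h and for 72 h with 24 h (18 correlations in all, 0.052 to 0.263). The main use of the block is therefore beside those comparisons, and elsewhere it is given where it changed a call. The limit of 0.1 was a choice. Every correlation was above 0, and single pairs reached 0.263 for 72 h with 8 h and 0.216 for 72 h with vehicle. P-values of the main fit rest on the spread of the 3 arrays within groups, shared over the 4 groups, in 1 cell line. That fit had no term for the experiment.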

Additional observations from a re-analysis of the deposited data

Results flagged for a closer look

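The effect of the hormone differed between times for 2 of the 10 genes, by limma's test of the difference itself, in 3 comparisons. Beside these, 0.279% of all genes were lower at 24 h against 8 h and 1.14% at 72 h against 8 h. MAL was lower at 24 h than at 8 h by -1.09 (log2, adjusted p = 0.0027), with means of 584 and 1248, and at 72 h than at 8 h by -1.58 (adjusted p = 1.9e-05), with means of 412 and 1248; the arrays did not overlap in either. VTCN1 was lower at 72 h than at 8 h by -1.89 (adjusted p = 0.0010), with means of 236 and 894 and no overlap. Groups of 3 arrays were too small for a search for single outlying arrays.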

How the results depend on the processing

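The counts of genes among the 10 that were lower against vehicle were within 1.5 times of those given under every alternative run (at 24 h 2 to 4 with each array left out, against 3). Counts that moved were these. With the replicate block 1 gene was higher at 24 h against vehicle (MUC16), 1 at 72 h against 24 h (CRABP2) and 1 at 72 h against 8 h (CRABP2), each against 0 without it. Over all 7178 genes the block gave 232, 14 and 163 higher in those comparisons, against 176, 6 and 99 without it. When only the groups compared were fitted, 1 was also higher at 72 h against 8 h (MSLN), beside 96 of all genes. At 24 h against 8 h 2 were lower, against 1, with a pseudocount 4 times as large, quantile normalization, the replicate block, array weights and only those groups, in each case by adding VTCN1. Over all genes 21, 22, 36, 31 and 14 were lower with these settings in turn, against 20. Leaving out each array in turn gave 0 to 1 higher at 24 h and at 72 h against vehicle, 1 to 2 lower at 24 h against 8 h, and 0 to 1 higher at 72 h against 8 h. Against vehicle the gene was gained at 24 h without 24 h replicate 3, where 142 of all genes were higher, against 176. At 72 h it was gained without 24 h replicate 2, where 299 were higher, against 277. The block also brought MUC1 at 24 h past the threshold (adjusted p = 0.0090), and over all genes it gave 15 lower at 8 h, against 4, and 188 lower at 24 h, against 116; the labels do not say that a replicate number marks an experiment, and against vehicle not every same-numbered pair correlated above 0.1. Small differences changed sign. With the mean of probe sets FOLR1 at 24 h was 0.33 and SPON1 -0.071, -0.043 and -0.11 at 8, 24 and 72 h, since other probe sets then enter, and with quantile normalization SPON1 at 72 h was -0.036. Leaving out single arrays gave -0.0095 to 0.22 for MUC16, -0.032 to 0.14 for WFDC2, -0.35 to 0.13 for VTCN1 and -0.026 to 0.14 for SPON1 at 8 h, -0.16 to 0.032 for WFDC2 at 24 h and -0.043 to 0.12 for SPON1 at 72 h. Where no construction is named, the cause was not tested. Median centring moved 5 U95 ratios: MAL to -1.12 and -1.21 and CD24 to -0.20 and -0.041 at 24 and 72 h, and MSLN to 0.37 at 72 h. All 21 probe sets lay above the filter on low signals; detection calls were not used here.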
